A study of Mus musculus with 203 samples.

Results

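The neutrophil chemokines and growth factors described here are 8 genes, chosen by name and followed across all 20 groups of week, tissue and exposure: the ligands Cxcl1, Cxcl2, Cxcl3, Cxcl5 and Cxcl15, the chemokine receptor Cxcr2, the growth factor Csf3 and its receptor Csf3r. All 8 were found among the 43346 genes of the count table, and all 8 passed the filter on low counts. Bulk RNA-Seq was performed on airways and parenchyma that had been dissected apart from lungs of female Balb/C mice, 18 to 20 weeks old by the labels. At 3 weeks, mice had received house dust mite extract (HDM) intranasally on 5 days per week for 3 weeks, or phosphate buffered saline (PBS), giving 11 PBS and 10 HDM libraries of airway and 12 PBS and 10 HDM libraries of parenchyma. At 11 weeks, HDM or PBS had been continued 3 times per week from week 4 to week 11 while mice breathed normal air (AIR) or cigarette smoke (CS) on 5 days per week for 8 weeks, and separate mice were also given dexamethasone (DEX), an anti-inflammatory glucocorticoid, during week 11. This gave 10 libraries for each of 8 exposures in each tissue, named PBS.AIR, HDM.AIR, PBS.CS and HDM.CS, with .DEX added for treated mice. Each library carries its own code. Neighbouring codes pair 1 airway with 1 parenchyma library of the same week and exposure and may be of 1 mouse, which the labels do not state. All libraries were treated as independent, so that p-values measure the spread between libraries, and a fit with these pairs as a block was run as an alternative.

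Neutrophils leave the blood along gradients of ELR-type CXC chemokines, which epithelial cells, fibroblasts, macrophages and neutrophils themselves release, and which bind the receptor CXCR2 on the neutrophil. G-CSF, the product of Csf3, makes the bone marrow produce and release neutrophils through its receptor, the product of Csf3r. In mice Cxcl15 (lungkine) stands apart from the other ligands, since it is made constitutively by lung epithelium. Whether Cxcl15 acts through CXCR2 was not examined here.

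The 5 ligand genes lie side by side on the + strand of chromosome 5, within 146.6 kb that hold 7 protein-coding genes in GENCODE M21 on GRCm38 (mm10). In order these are Cxcl5 (chr5:90759360-90761624), Ppbp, Pf4, Cxcl3 (chr5:90786103-90789600), Cxcl15 (chr5:90794534-90803067), Cxcl1 (chr5:90891241-90893115) and Cxcl2 (chr5:90903871-90905938). The others lie elsewhere, Cxcr2 at chr1:74153989-74161246, Csf3 at chr11:98701263-98703629 and Csf3r at chr4:126024550-126044440, all on the + strand. Sequences of 250 bases before the RefSeq start site on GRCm38.p6 are shown for the ligands that rose with HDM at 3 weeks and had an entry, Cxcl1 (chr5:90890995-90891244), Cxcl2 (chr5:90903649-90903898) and Cxcl3 (chr5:90785851-90786100), beside Cxcl15 (chr5:90794284-90794533), which did not pass in that comparison. Capitals mark each match on either strand to GGGA and CC with any 4 bases between, the letters read by NF-kB, a transcription factor of inflammation.
Cxcl1: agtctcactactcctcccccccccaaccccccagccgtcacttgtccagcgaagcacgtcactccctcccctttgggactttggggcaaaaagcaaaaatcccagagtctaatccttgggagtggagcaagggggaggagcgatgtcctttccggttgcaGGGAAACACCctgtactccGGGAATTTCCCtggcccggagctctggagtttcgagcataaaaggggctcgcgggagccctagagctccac
Cxcl2: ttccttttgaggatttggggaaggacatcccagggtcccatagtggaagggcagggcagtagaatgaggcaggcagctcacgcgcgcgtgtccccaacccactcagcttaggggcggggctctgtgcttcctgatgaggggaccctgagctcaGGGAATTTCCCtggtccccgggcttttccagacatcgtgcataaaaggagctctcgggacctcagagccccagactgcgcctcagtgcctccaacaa
Cxcl3: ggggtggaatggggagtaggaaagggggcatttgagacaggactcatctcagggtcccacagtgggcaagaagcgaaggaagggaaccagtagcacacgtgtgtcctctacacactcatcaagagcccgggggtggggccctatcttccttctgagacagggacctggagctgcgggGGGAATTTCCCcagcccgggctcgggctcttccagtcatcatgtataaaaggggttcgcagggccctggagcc
Cxcl15: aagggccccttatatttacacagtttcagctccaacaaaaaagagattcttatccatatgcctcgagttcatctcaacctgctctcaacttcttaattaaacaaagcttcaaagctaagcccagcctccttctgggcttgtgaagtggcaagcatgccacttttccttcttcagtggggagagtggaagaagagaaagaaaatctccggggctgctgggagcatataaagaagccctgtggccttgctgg
The unbroken run GGGAATTTCCC stands 71 bases before the start site in Cxcl1, 97 bases before it in Cxcl2 and 73 bases before it in Cxcl3. This run was picked as the longest stretch with a marked match that the windows of Cxcl1, Cxcl2 and Cxcl3 share. Its presence in them was therefore fixed in advance. Among the 32851 promoters of that length in the RefSeq table, 14 (0.0426%) hold this run, those of Cxcl1, Cxcl2 and Cxcl3 included. The looser pattern marked by capitals, of which the run holds 1 match per strand, is held by 17.6% of promoters. Cxcl1 carries a further match, GGGAAACACC, 90 bases before its start site, Csf3r carries 1 match, and the windows of Cxcl15 and Cxcr2 hold none of these letters. TATAAA, held by 12.4% of promoters, stands 30 bases before the start site of Cxcl3 and 27 bases before that of Cxcl15. CACGTG, the E-box read by clock factors, is held by 6.02% of promoters and stands further upstream in Cxcl3. The pattern TGANTCA of AP-1, held by 6.75% of promoters, is in none of the 6 member windows. These matches are descriptions of letters and were not tested as binding sites.

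Libraries held between 13003154 and 40240733 counts in all (median 28090684), and levels are given as CPM, counts scaled to the library total after TMM normalization. No pair of libraries of a group agreed within sampling noise. In all, 5 libraries stood apart by a low total or by a low correlation with their own group, and results are also given without them where a call changed. Markers placed the PBS libraries of 3 weeks with their labels: club cell, ciliated cell, mucus cell and smooth muscle genes were all higher in airway, and alveolar type I and type II genes were all lower. In HDM.AIR at 11 weeks none of the 4 alveolar type II markers was lower in airway, so the tissues were less distinct there. Smoke raised all 4 of its check genes in both tissues, among them Cyp1a1 with a log2FC of 3.19 in airway and 2.91 in parenchyma. Of 4 genes that glucocorticoids are known to induce, none rose with DEX in PBS.AIR or HDM.AIR, and Tsc22d3 fell by 1.07 and Zbtb16 by 1.09 on the log2 scale in PBS.AIR airway.

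After 3 weeks, 7 of the 8 genes were upregulated in HDM-exposed airways compared to PBS controls (34.1% of all genes tested rose there), and the same 7 were upregulated in parenchyma (33.4% of all genes tested). For all 7, every HDM library lay above every PBS library in both tissues. The exception was Cxcl15. Here and below, no share of all genes without overlap was counted. The median log2FC over the 8 genes was 2.29 in airway and 3.03 in parenchyma, where the medians over all genes tested were -0.07 and -0.13. A gene is said to have passed, risen or fallen at an adjusted p-value under 0.05 in limma-voom.

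**Figure D1:**
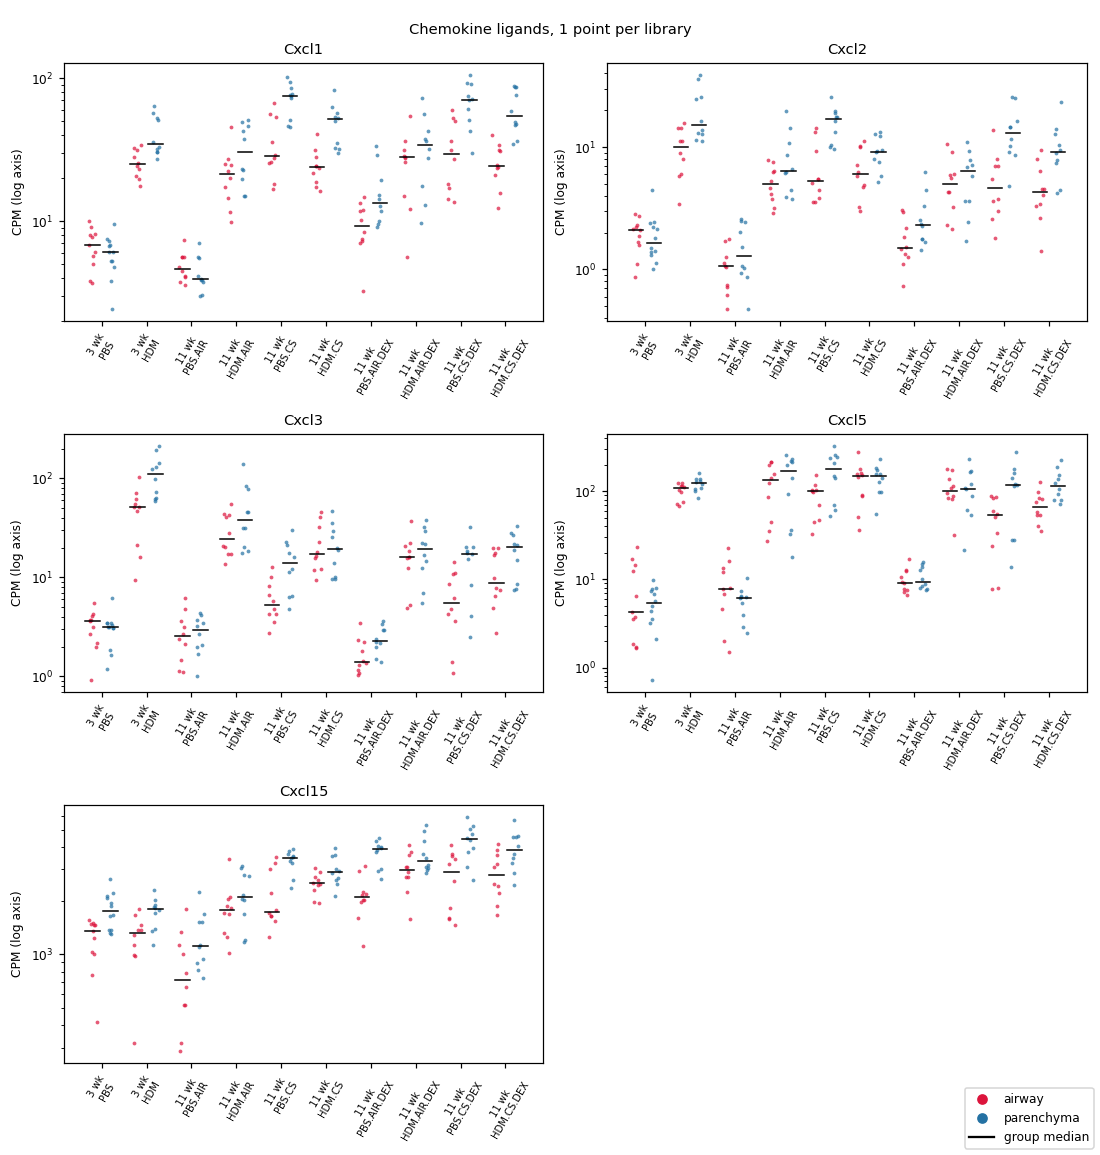
CPM of the 5 ligand genes on log axes, 1 point per library, with the group median as a bar, for 20 groups in airway (red) and parenchyma (blue). Cxcl1, Cxcl2, Cxcl3 and Cxcl5 had low medians in the PBS and PBS.AIR groups (in PBS.AIR airways 4.61, 2.56 and 7.81 CPM for Cxcl1, Cxcl3 and Cxcl5), and Cxcl3 was also low in PBS.AIR.DEX, whereas Cxcl15 was between 286 and 5894 CPM in every library.

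Cxcl3 and Cxcl5 showed the largest changes among the ligands. Cxcl3, one of the close relatives of Cxcl1 that bind CXCR2, ranged from 0.917 to 5.51 CPM in PBS airways (median 3.62) and from 9.44 to 104.2 CPM in HDM airways (median 51.1). In parenchyma it ranged from 1.197 to 6.21 CPM with PBS (median 3.13) and from 58.8 to 214 CPM with HDM (median 111.9). The groups did not overlap, and the log2FC was 3.66 (SE 0.45, adjusted p = 2.08e-09) in airway and 5.05 (SE 0.48, adjusted p = 1.25e-12) in parenchyma. Cxcl5, an epithelial chemokine, ranged from 1.65 to 23.7 CPM in PBS airways (median 4.24) and from 68.6 to 124.8 CPM in HDM airways (median 108.1). In parenchyma Cxcl5 went from 0.720 to 9.75 CPM (median 5.35) up to 84.9 to 163.4 CPM (median 124.2). Its log2FC was 4.05 (SE 0.31, adjusted p = 3.04e-15) in airway and 4.56 (SE 0.34, adjusted p = 8.07e-16) in parenchyma.

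Cxcl1 and Cxcl2, the mouse KC and MIP-2, rose by less. Cxcl1 ranged from 3.65 to 10.1 CPM in PBS airways (median 6.80) against 17.5 to 34.2 CPM with HDM (median 24.97), and from 2.42 to 9.51 CPM in PBS parenchyma (median 6.03) against 27.3 to 64.4 CPM (median 34.4). Its log2FC was 1.90 (SE 0.19) and 2.66 (SE 0.20). Cxcl2 went from 0.860 to 2.86 CPM in PBS airways (median 2.12) up to 3.45 to 15.8 CPM (median 10.0), and from 1.01 to 4.44 CPM in PBS parenchyma (median 1.65) up to 11.2 to 38.98 CPM (median 15.1). Neither gene overlapped between PBS and HDM in either tissue, and the log2FC of Cxcl2 was 2.22 (SE 0.34) and 3.18 (SE 0.34). Cxcl15 was the exception in both tissues. It ranged from 417 to 1562 CPM in PBS airways (median 1357) and from 318 to 1786 CPM in HDM airways (median 1325), while parenchyma held medians of 1759 and 1799.5 CPM. The ranges overlapped almost entirely, with a log2FC of -0.06 (95% interval -0.47 to 0.35) in airway and -0.18 (-0.60 to 0.24) in parenchyma.

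Csf3 was scarce in PBS controls and measurable in every HDM library. PBS airways held 0 to 8 counts of Csf3 per library (median 2) and HDM airways 11 to 96 (median 26.5). In parenchyma it was 0 to 2 counts (median 1, with 5 of 12 libraries at 0) against 7 to 49 (median 18). A floor of 3 counts per library corresponds to 0.0746 to 0.231 CPM of the unscaled total, so that the PBS parenchyma libraries all lay at or under it. Summed over libraries, Csf3 was 12.1 times as frequent in HDM as in PBS airways (exact 95% Poisson interval 8.36 to 18.1, for counting error only) and 28.2 times as frequent in parenchyma (14.1 to 66.2). The fitted log2FC was 3.25 (SE 0.45) and 3.97 (SE 0.49).

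Both receptors rose with HDM. Cxcr2 ranged from 7.85 to 22.1 CPM in PBS airways (median 14.5) and from 33.6 to 128.3 CPM in HDM airways (median 84.2), and in parenchyma from 12.9 to 19.9 CPM (median 17.3) to 106.4 to 258 CPM (median 128.03). Csf3r ranged from 20.1 to 56.8 CPM in PBS airways (median 26.6) and from 60.6 to 245 CPM with HDM (median 172.9), and in parenchyma from 29.1 to 56.8 CPM (median 43.3) to 206 to 358 CPM (median 234). Neither receptor overlapped between the groups, and the log2FC in airway and parenchyma was 2.33 and 2.88 for Cxcr2 (SE 0.21 in both) and 2.24 and 2.43 for Csf3r (SE 0.21 in both). In these bulk samples, more cells of a type and more RNA per cell cannot be told apart. Of 12 neutrophil markers, which do not include the receptors, 10 rose in airway and 11 in parenchyma, led by Il1r2 (3.56 and 4.66) and Ly6g (3.35 and 2.79). Their summed level was 558 to 1558 CPM in PBS airways against 1247 to 4231 with HDM, and 302 to 584 against 1133 to 3732 CPM in parenchyma, with no marker at 0 throughout. Per 100 CPM of these summed markers, the median level of Cxcr2 was 1.60 CPM in PBS and 5.73 CPM in HDM airways, and 4.25 and 8.50 CPM in parenchyma. For Csf3r it was 3.57 and 11.497 CPM in airway and 10.6 and 15.9 CPM in parenchyma. These ratios are not levels per neutrophil. In PBS the summed markers had a higher median in airway (830 CPM) than in parenchyma (393 CPM), whereas both receptors had lower medians in airway. Whether cells other than neutrophils gave part of the marker sum was not tested. Of 6 macrophage markers 5 rose and 1 fell in airway and 5 rose in parenchyma. Their summed level was 218 to 349 CPM in PBS airways against 391 to 1431.5 CPM with HDM, and 262 to 414 against 1182 to 1582.5 CPM in parenchyma, with no marker at 0 throughout. The part of both marker lists in the result was not tested.

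Genes known to induce these chemokines moved in the same comparison. Of 13 inducers tested, 11 rose and 2 fell in airway, with a median log2FC of 1.81, and 11 rose and 1 fell in parenchyma, with a median of 2.06. Il17a, which acts on epithelium to release CXC chemokines and G-CSF, rose by 4.06 and 4.82, and Tnf by 3.01 and 3.99. Il36g, an epithelial member of the IL-1 family, rose by 3.48 and 3.72. Of 18 other genes of neutrophil recruitment, 15 rose and 1 fell in airway (median 1.26) and 16 rose and 1 fell in parenchyma (median 1.91). Itgam and Itgb2, which form the integrin Mac-1, rose by 2.75 and 2.44 in airway and by 3.28 and 2.91 in parenchyma. Among the other colony-stimulating factors and receptors 5 of 6 rose in each tissue, with medians of 1.53 and 2.10, led by the shared receptor chain Csf2rb at 2.76 and 3.26. Csf2 did not pass (0.26 and 0.16).

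Levels of clock genes differed between the same groups. Arntl, which encodes the clock activator BMAL1, was 3.64 to 10.0 CPM in PBS libraries and 9.26 to 16.9 CPM in HDM libraries of 3 weeks, with no overlap within a tissue. Dbp, a clock output gene that peaks in the opposite phase, was 102.7 to 164.1 CPM with PBS and 11.7 to 33.8 CPM with HDM, with no overlap. Exposure and clock gene level therefore cannot be told apart at 3 weeks. With both genes as covariates in limma-voom, Cxcl5 passed in airway (2.79, adjusted p = 0.00797). In parenchyma Cxcl3 (3.03, adjusted p = 0.0463), Cxcl5 (3.06, adjusted p = 0.00335) and Cxcr2 (2.04, adjusted p = 0.0282) passed. All other members that had passed lost their calls in this fit, and Cxcl2 in airway had -0.19 (adjusted p = 0.908). Since neither clock gene overlaps between the groups, this fit cannot separate exposure from clock gene level.

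The mix of ligands differed between exposures. On the scale of CPM per kb of exon, Cxcl5 made up 44.8% of the summed mean level of Cxcl1, Cxcl2, Cxcl3 and Cxcl5 in PBS airways of 3 weeks and 62.5% in HDM airways, and 36.6% and 50.1% in parenchyma. Cxcl3 made up 9.40% and 16.1% in airway and 11.2% and 25.4% in parenchyma, and the summed level itself was 9.90 and 86.6 CPM per kb in airway and 7.86 and 130.7 in parenchyma. At 11 weeks Cxcl5 held between 66.1% and 74.6% of the sum in HDM.AIR and PBS.CS airways, while Cxcl3 was 9.56% in HDM.AIR and 2.54% in PBS.CS. In parenchyma Cxcl3 was 12.9% in HDM.AIR and 2.95% in PBS.CS. Cxcl1 showed the opposite order, at 13.0% and 26.7% in airway and 15.1% and 26.8% in parenchyma. Cxcl15 exceeded the sum of the other ligands in every group, by 6.19 to 107.4 times per kb.

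**Figure D2:**
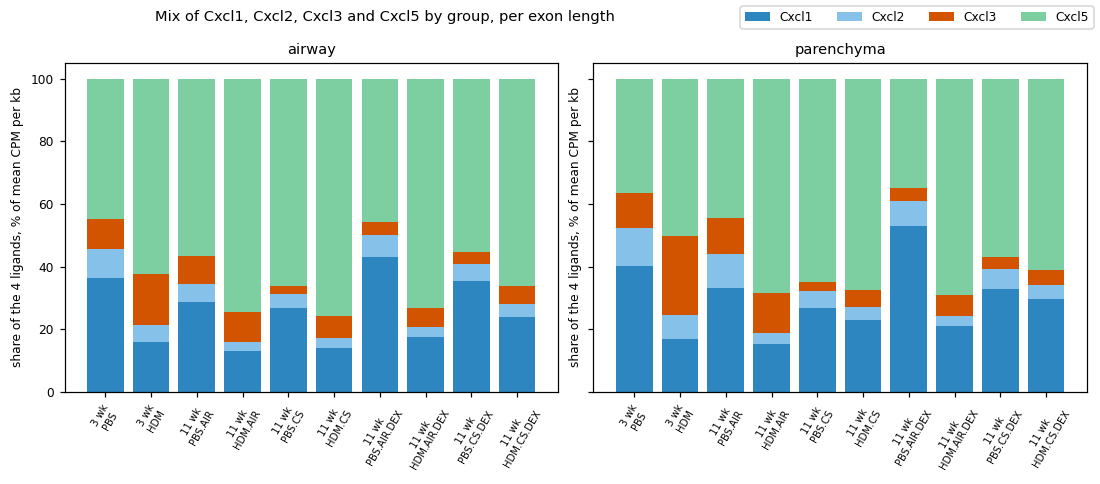
Share of Cxcl1, Cxcl2, Cxcl3 and Cxcl5 in their summed mean level per kb of exon (percent, stacked bars from 0) for each group of week and exposure, in airway and parenchyma. Cxcl5 held 62.5% in HDM airways of 3 weeks, and the share of Cxcl3 was 9.56% in HDM.AIR against 2.54% in PBS.CS airways.

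At 11 weeks, all 8 genes were higher in HDM.AIR than in PBS.AIR in airway (31.3% of all genes tested rose) and in parenchyma (32.6%). The libraries did not overlap for 5 of them in airway and for 4 in parenchyma, which was not counted over all genes. Cxcl5 was 1.51 to 22.5 CPM in PBS.AIR airways (median 7.81) and 27.3 to 216 CPM in HDM.AIR airways (median 134.5), with a log2FC of 3.81 (SE 0.52). In parenchyma it was 2.47 to 10.4 CPM (median 6.24) against 18.1 to 260 CPM (median 170), a log2FC of 4.34 (SE 0.58). In both tissues every HDM.AIR library lay above every PBS.AIR library. Cxcl3 went from 1.12 to 6.17 CPM in airway (median 2.56) up to 13.7 to 55.4 CPM (median 24.3), and its log2FC was 3.44 (SE 0.51) in airway and 4.01 (SE 0.52) in parenchyma. Cxcl1 rose by 2.07 and 2.84 and Cxcl2 by 2.34 and 2.48, with no overlap in either tissue.

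Csf3 was 0 to 4 counts per library in PBS.AIR airways (median 1) and 5 to 26 in HDM.AIR airways (median 10), and 0 to 3 (median 0.5) against 1 to 31 (median 5.5) in parenchyma. Airway libraries did not overlap, whereas 5 of the 10 HDM.AIR parenchyma libraries lay within the control range. The summed ratio was 8.15 (exact 95% Poisson interval 4.82 to 14.7) in airway and 12.8 (6.27 to 30.3) in parenchyma, again for counting error only. The fitted log2FC was 2.89 (SE 0.57) and 2.64 (SE 0.65). Cxcr2 was 6.22 to 39.3 CPM in PBS.AIR airways (median 10.2) and 31.1 to 94.3 CPM in HDM.AIR airways (median 55.7), a log2FC of 2.196 (SE 0.25), with 1.59 (SE 0.23) in parenchyma. Csf3r rose by 2.35 (SE 0.25) and 1.64 (SE 0.24). Both receptors overlapped between the groups, with 7 of 10 HDM.AIR airway libraries above every control for Cxcr2 and 9 of 10 for Csf3r.

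Cxcl15 rose with HDM at 11 weeks. It was 286 to 1806 CPM in PBS.AIR airways (median 719) and 1012 to 3425 CPM in HDM.AIR airways (median 1763), with 5 of 10 HDM.AIR libraries above every control. Its log2FC was 1.30 (SE 0.19, adjusted p = 1.42e-09) in airway and 0.85 (SE 0.20, adjusted p = 9.76e-05) in parenchyma. Tested directly in the fit over both weeks, the HDM effect on Cxcl15 was higher at 11 than at 3 weeks by 1.31 (SE 0.28) in airway, where it was 1 of 8 members to pass (28.4% of all genes passed in either direction), and by 0.90 (SE 0.28) in parenchyma. In parenchyma 3 of 8 passed (42.4% of all genes), since the HDM effect was lower at 11 weeks for Cxcr2 by -1.42 (SE 0.33) and for Csf3r by -0.91 (SE 0.33). Week, schedule and handling of the libraries cannot be told apart in this difference. Alveolar type II markers moved beside Cxcl15 at 11 weeks, with 3 of 4 higher in airway and 3 higher and 1 lower in parenchyma, and no marker at 0. Their summed level was 5709 to 19532 CPM in PBS.AIR airways and 10817 to 20701 CPM in HDM.AIR airways, and 16254 to 27646 against 14562 to 21489 CPM in parenchyma. Their part in the result was not tested.

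The pathway genes around the members also moved at 11 weeks. Of 13 inducers, 11 rose and 1 fell in airway (median log2FC 1.17) and 10 rose and 1 fell in parenchyma (median 1.21). Il17a rose by 7.64 in airway and 6.65 in parenchyma, and Il17f, which signals through the same receptor, by 5.03 and 5.92. Il17a was 0 to 0.714 CPM in PBS.AIR airways (median 0.0674) and 6.61 to 42.3 CPM in HDM.AIR airways (median 15.2). Of the 18 other recruitment genes 13 rose and 1 fell in airway (median 1.14) and 11 rose and 1 fell in parenchyma (median 1.06), and all 6 other colony-stimulating factor genes rose in both tissues (medians 1.56 and 1.53). Neutrophil markers rose for 10 of 12 in airway and 8 of 12 in parenchyma, with summed levels of 410 to 1973 CPM in PBS.AIR airways against 769 to 2021 CPM, and 137.97 to 532 against 278 to 1355 CPM in parenchyma. Macrophage markers rose for 5 of 6 in each tissue, with summed levels of 217 to 356 CPM in PBS.AIR airways against 728 to 1286 CPM, and 326 to 572 against 885 to 1989 CPM in parenchyma. Their part in the result was not tested.

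Smoke alone also raised most of the 8 genes. In PBS mice, 6 of 8 genes were higher with smoke in airway (7.66% of all genes tested rose) and 7 of 8 in parenchyma (17.7%). Libraries did not overlap for 3 and 5 of them, which was not counted over all genes. Cxcl1 was 3.55 to 7.38 CPM in PBS.AIR airways (median 4.61) and 16.6 to 67.1 CPM in PBS.CS airways (median 28.4). In parenchyma it was 3.00 to 7.03 CPM (median 3.90) against 45.5 to 102.5 CPM (median 75.4). The log2FC of Cxcl1 was 2.74 (SE 0.38) and 4.08 (SE 0.40). Cxcl5 went up to 32.5 to 152.9 CPM in airway (median 100.4) and 51.98 to 329 CPM in parenchyma (median 179.1), log2FC 3.45 (SE 0.52) and 4.80 (SE 0.58), and Cxcl2 rose by 2.60 (SE 0.44) and 3.50 (SE 0.40). None of these libraries overlapped with PBS.AIR. Cxcl3 was 2.74 to 12.8 CPM in PBS.CS airways (median 5.29), which overlapped with the controls, and had a log2FC of 1.18 (adjusted p = 0.182). Cxcl3 passed there in edgeR (1.13, adjusted p = 0.032) and in DESeq2 (1.13, adjusted p = 0.0181), in which 7 of 8 genes rose. In parenchyma Cxcl3 was 4.76 to 30.1 CPM (median 14.1), without overlap, and rose by 2.29 (SE 0.55).

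Cxcl15 rose by 1.52 (SE 0.19) in airway and 1.49 (SE 0.20) in parenchyma with smoke. In parenchyma every PBS.CS library, at 2345 to 3900 CPM, lay above every PBS.AIR library, at 738 to 2225 CPM. Both receptors rose, Cxcr2 by 1.22 and 1.06 and Csf3r by 1.32 and 1.06, and their libraries overlapped with the controls. Csf3 was 1 to 7 counts per library in PBS.CS airways and 0 to 6 in parenchyma, and did not pass (1.22, adjusted p = 0.209, and 1.30, adjusted p = 0.143). Summed over libraries, Csf3 gave 41 counts in PBS.CS against 16 in PBS.AIR airways, a ratio of 2.61 (exact 95% Poisson interval 1.433 to 4.983), and 27 against 8 in parenchyma, a ratio of 3.23 (1.428 to 8.227), both for counting error only. Of 13 inducers 7 rose and none fell in each tissue, with medians of 0.63 and 0.67, among them Tnf in parenchyma (2.53) and Il36g (1.54 and 1.81). Il17a had 1.98 in airway (adjusted p = 0.166). Of the 18 other recruitment genes 8 rose in airway (median 0.34), and 11 rose and 1 fell in parenchyma (median 0.53), with Cxcr1, a second receptor of this family, at 2.77 and 3.28. Csf2, the gene of GM-CSF, was among the 5 of 6 other colony-stimulating factor genes that rose in each tissue (1.86 and 2.11, list medians 0.75 and 1.27). Neutrophil markers rose for 10 and 9 of 12, with summed levels of 508 to 2129 CPM in PBS.CS airways and 328 to 717 CPM in parenchyma. Macrophage markers rose for 6 of 6 in airway and 5 in parenchyma, with summed levels of 288 to 752 CPM in PBS.CS airways and 841 to 1166 CPM in parenchyma. Alveolar type II markers rose for 2 and 3 of 4. Their summed level was 5709 to 19532 CPM in PBS.AIR (median 11639) and 5613 to 16853 CPM in PBS.CS airways (median 11365). In parenchyma it was 16254 to 27646 CPM (median 20061) and 16688 to 27131 CPM (median 20743). Their part in these results was not tested.

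**Figure D3:**
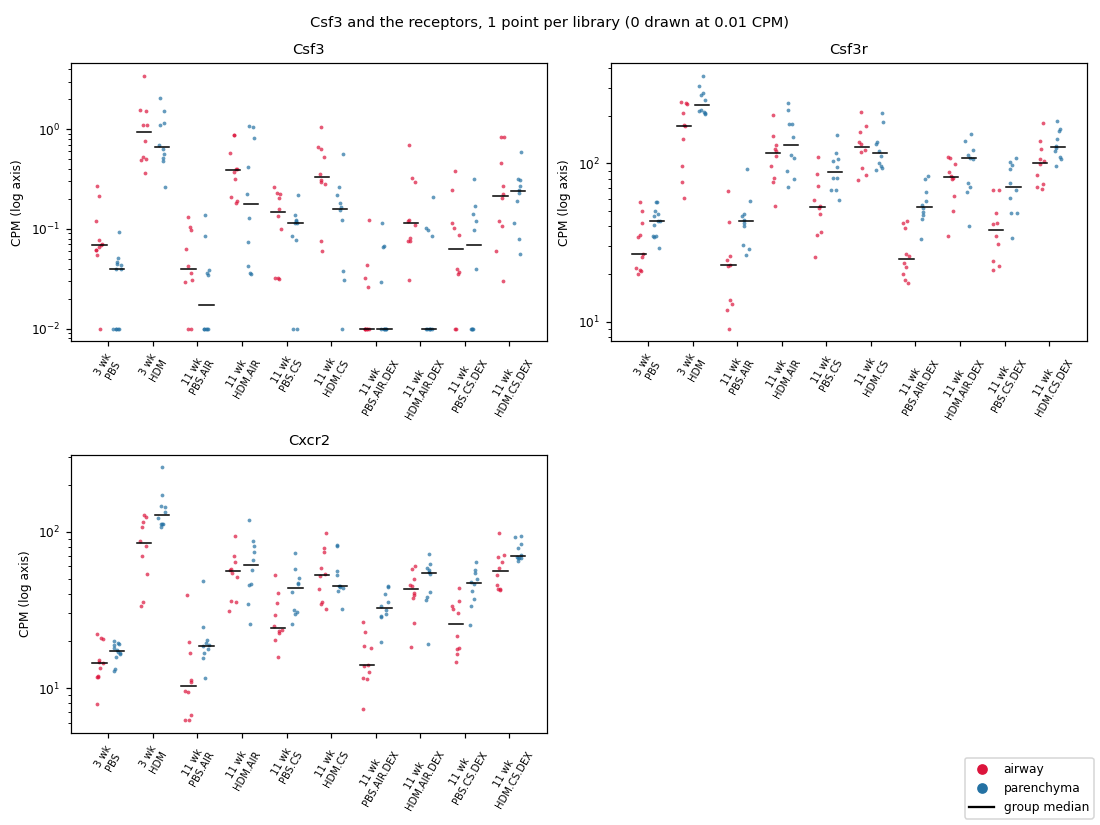
CPM of Csf3, Csf3r and Cxcr2 on log axes, 1 point per library with the group median as a bar, where libraries at 0 are drawn at 0.01 CPM. Csf3 was highest in HDM libraries of 3 weeks, with medians of 0.934 CPM in airway and 0.659 in parenchyma.

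HDM.AIR and PBS.CS were compared directly, a comparison added after their values had been seen. In airway, 5 of 8 genes passed (54.2% of all genes passed in either direction) and in parenchyma 7 of 8 (42.2%). Higher with HDM were Cxcl3, by 2.26 (SE 0.41) in airway, where no library overlapped, and 1.73 (SE 0.34) in parenchyma, Csf3 by 1.67 (SE 0.50) and 1.34 (SE 0.57), Cxcr2 by 0.97 (SE 0.22) and 0.52 (SE 0.21), and Csf3r by 1.04 (SE 0.23) and 0.58 (SE 0.24). Higher with smoke were Cxcl1 (in both tissues), with a log2FC of -0.67 (SE 0.28) and -1.24 (SE 0.26), and in parenchyma Cxcl2 at -1.02 (SE 0.25) and Cxcl15 at -0.64 (SE 0.21). Cxcl5 did not pass in either tissue, at 0.35 (95% interval -0.41 to 1.11) and -0.46 (-1.24 to 0.32). The airway call of Cxcl1 was lost without a filter (-0.66, adjusted p = 0.054), with Arntl and Dbp as covariates (-0.64, adjusted p = 0.0503) and among libraries with Arntl above Dbp (-0.26, adjusted p = 0.541). With the libraries of both weeks in one fit 4 members passed in parenchyma. There Cxcr2 (0.47, adjusted p = 0.0594), Csf3 (1.29, adjusted p = 0.0527) and Csf3r (0.53, adjusted p = 0.0543) lost their calls. Among libraries with Arntl above Dbp, Cxcr2 (0.40, adjusted p = 0.211), Csf3r (0.44, adjusted p = 0.221) and Cxcl15 (-0.48, adjusted p = 0.0579) lost theirs in parenchyma. Without a filter, Cxcr2 and Csf3 did.

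HDM and smoke together gave less than the sum of both effects on the log2 scale. The interaction was negative for 6 of 8 genes in airway (11.4% of all genes had a lower interaction) and for 7 of 8 in parenchyma (18.7%). It was largest for Cxcl5, at -3.26 (SE 0.65) and -4.47 (SE 0.70), followed in parenchyma by Cxcl1 at -3.43 (SE 0.48), Cxcl3 at -3.38 (SE 0.63) and Cxcl2 at -3.22 (SE 0.48). In airway Cxcl1 had -2.49 (SE 0.47) and Cxcl2 -2.29 (SE 0.54), while Cxcl3 at -1.64 (adjusted p = 0.0644) and Csf3 at -1.54 (adjusted p = 0.144) did not pass. Cxcl15 (-1.02 and -1.01), Cxcr2 (-1.23 and -1.28) and Csf3r (-1.12 and -1.17) passed in both tissues, and Csf3 did not in parenchyma (-2.08, adjusted p = 0.0554). In airway Cxcl3 passed in edgeR (-1.56, adjusted p = 0.0233), in DESeq2 (-1.56, adjusted p = 0.0171) and with Arntl and Dbp as covariates (-1.71, adjusted p = 0.0188), so that both tools called 7 of 8 members. In parenchyma Csf3 passed in edgeR (-2.75, adjusted p = 0.014) and DESeq2 (-2.87, adjusted p = 0.011), which called 8 of 8. It also passed without the 5 libraries that stood apart (-2.24, adjusted p = 0.04) and among libraries with Arntl above Dbp (-2.84, adjusted p = 0.0311). With Arntl above Dbp only, 3 airway calls were lost. These were Cxcl15 (-0.66, adjusted p = 0.106), Cxcr2 (-1.06, adjusted p = 0.0689) and Csf3r (-0.91, adjusted p = 0.136). These contrasts share PBS.AIR libraries with the single effects. Neutrophil markers had a negative interaction for 6 of 12 in airway and 8 of 12 in parenchyma, inducers for 7 of 13 in each, and macrophage markers for 4 and 5 of 6. Their part in the result was not tested.

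The levels showed what this comprised. Adding smoke to HDM moved no gene in airway (0 of 8 passed, with 16.2% of all genes passing) and only Cxcl3 in parenchyma (24.1% of all genes), which fell from 17.6 to 140.9 CPM (median 38.4) in HDM.AIR to 9.58 to 47.4 CPM (median 19.3) in HDM.CS, with a log2FC of -1.09 (SE 0.31, adjusted p = 0.00454). In airway 1 gene, Cxcl15, had an unadjusted p under 0.05 in limma-voom, and edgeR and DESeq2 called 0. HDM.CS libraries held 16.2 to 41.01 CPM of Cxcl1 in airway (median 23.99) and 36.04 to 276 CPM of Cxcl5 (median 149.7), overlapping with HDM.AIR. Adding HDM to smoke raised 4 of 8 genes in airway (33.1% of all genes passed in either direction), Cxcl3 by 1.80 (SE 0.42), Csf3 by 1.35 (SE 0.50), Csf3r by 1.23 (SE 0.24) and Cxcr2 by 0.96 (SE 0.22). In parenchyma the only gene to pass was Cxcl2, which was lower by -0.74 (adjusted p = 0.0313; 9.94% of all genes passed). Cxcl2 did not pass there in edgeR, in DESeq2 or without a filter on low counts. Il17a and Il17f rose when HDM was added to smoke, by 5.58 and 5.19 in airway and by 6.65 and 6.66 in parenchyma, within 13 inducers of which 8 rose and 1 fell in airway (median 0.62) and 4 rose in parenchyma (median 0.10).

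**Figure D4:**
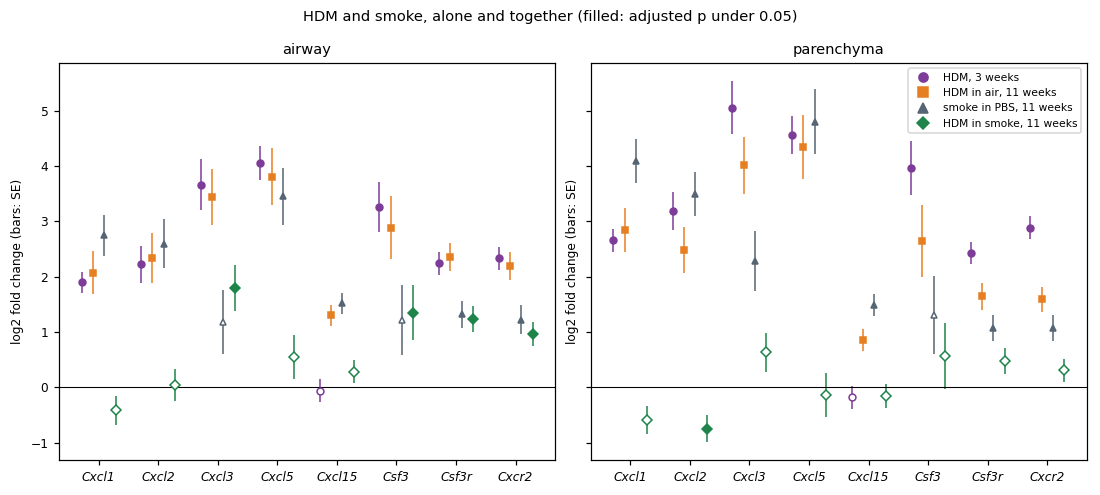
log2FC with SE bars (limma-voom) of the 8 genes for HDM at 3 weeks, HDM in air, smoke in PBS and HDM in smoke at 11 weeks, in airway and parenchyma, where filled symbols passed. Cxcl3 had 3.44 with HDM in air and 1.18 with smoke in airway, and Cxcl5 had 4.80 with smoke and -0.14 with HDM in smoke in parenchyma.

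At most 3 of the 8 genes passed with DEX in any 1 comparison in limma-voom as reported, and the changes went in both directions. In PBS.AIR parenchyma edgeR and DESeq2 each called 4. In HDM.AIR, 3 of 8 passed in airway (28.6% of all genes passed in either direction) and 3 of 8 in parenchyma (28.5%). Csf3 fell from 5 to 26 counts per library (median 10) to 1 to 23 (median 3) in airway, with a log2FC of -1.35 (SE 0.48, adjusted p = 0.0244). In parenchyma it fell from 1 to 31 counts (median 5.5) to 0 to 5 (median 0), with 6 of 10 libraries at 0 and a log2FC of -2.27 (SE 0.63, adjusted p = 0.00312). Summed counts of Csf3 were 7.59 times as frequent without DEX in parenchyma (exact 95% Poisson interval 4.26 to 14.7) and 2.13 times in airway (1.55 to 2.96). Cxcl3 fell by 0.89 in airway (SE 0.33, adjusted p = 0.0323) and by 1.30 in parenchyma (SE 0.32, adjusted p = 0.000857), to 4.93 to 37.5 CPM (median 16.0) and 5.53 to 38.4 CPM (median 19.5). All of these ranges overlapped. Cxcl15 rose by 0.74 (SE 0.21) and 0.79 (SE 0.21). Alveolar type II markers rose for 3 of 4 in airway and 2 of 4 in parenchyma, with summed levels of 10817 to 20701 CPM in HDM.AIR against 12350 to 28981 CPM in HDM.AIR.DEX airways, and 14562 to 21489 against 21375 to 35444 CPM in parenchyma. Their part in the change of Cxcl15 was not tested. The calls of Csf3 and Cxcl3 in airway were lost in edgeR, in DESeq2 and without a filter on low counts, where 1 of 8 members passed.

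Cxcl1, Cxcl2 and Cxcl5 did not pass with DEX in HDM.AIR. Their log2FC was 0.18, -0.06 and 0.01 in airway, and -0.02 (95% interval -0.55 to 0.52), -0.59 (-1.20 to 0.02) and -0.15 (-0.92 to 0.62) in parenchyma. The receptors did not pass either, with values from -0.33 to -0.51 over both genes and tissues. Of 12 neutrophil markers Ly6g (-1.45 and -1.75) and Trem1 (-0.83 and -0.96) fell and none rose, at summed levels of 546 to 1037 CPM in HDM.AIR.DEX airways and 236 to 754 CPM in parenchyma. Of 13 inducers 2 rose and 6 fell in airway (median -0.33) and 2 rose and 7 fell in parenchyma (median -0.35), among them Il6 (-1.60 and -1.72), Il36g (-0.89 and -1.36) and Il1b (-0.96 and -1.15). Of the other recruitment genes 1 rose and 6 fell in airway (median -0.37) and 1 rose and 7 fell in parenchyma (median -0.43). HDM still raised all 8 genes in DEX-treated airways (23.6% of all genes tested rose), among them Cxcl5 by 3.35 and Cxcl3 by 3.15, and 5 of 8 in DEX-treated parenchyma (22.6%), with Cxcl5 at 3.20 and Cxcl3 at 2.83. Csf3 was not among those in parenchyma (0.47, adjusted p = 0.66). The airway call of Cxcl15 (adjusted p = 0.0488) was lost in 5 alternatives, with adjusted p-values from 0.0521 without a filter to 0.065 among libraries with Arntl above Dbp.

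In PBS.AIR, DEX raised Cxcl15. Airways held 286 to 1806 CPM without DEX (median 719) and 1106 to 3136 CPM with it (median 2087), and parenchyma 738 to 2225 CPM (median 1109) against 2631 to 4489 CPM (median 3897). The parenchyma libraries did not overlap, and the log2FC was 1.56 (SE 0.20) and 1.64 (SE 0.21). This was 1 of 8 members to pass in airway (14.9% of all genes) and 1 of 3 in parenchyma (22.6%). Cxcl1 also rose in parenchyma without overlap, from 3.00 to 7.03 CPM to 9.13 to 33.6 CPM (1.86, SE 0.42), as did Cxcr2 (0.74, SE 0.24), whose libraries overlapped. Alveolar type II markers moved with Cxcl15, 3 of 4 being higher with DEX in each tissue, including Lamp3 (1.02 and 0.92) and Abca3 (0.87 and 0.85). Their summed level was 9102 to 22389 CPM in PBS.AIR.DEX airways and 25867 to 32843 CPM in parenchyma, with no marker at 0, and their part in the result was not tested. Of 13 inducers 3 rose in airway (median -0.10), and 1 rose and 1 fell in parenchyma (median 0.13).

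In smoke-exposed mice none of the 8 genes passed with DEX in limma-voom. This held for PBS.CS in airway (11.3% of all genes passed) and parenchyma (16.9%), and for HDM.CS in airway (9.3%) and parenchyma (7.86%). At an unadjusted p under 0.05, limma-voom gave 2 genes in airway for each, and 0 and 1 in parenchyma, and edgeR and DESeq2 called 0. With neighbouring codes as a block, Cxcl5 passed in PBS.CS airways (-1.07, adjusted p = 0.0284) and Cxcl3 in HDM.CS airways (-0.996, adjusted p = 0.0422). The nearest as reported was Cxcl5 in PBS.CS airways, at 32.5 to 152.9 CPM without DEX and 7.88 to 89.7 CPM with it (-1.07, adjusted p = 0.0566). With DEX, smoke raised 3 of 8 genes in PBS airways (2.26% of all genes rose), Cxcl1 by 1.63, Cxcl2 by 1.48 and Cxcl5 by 1.91. Cxcr2 passed there too without the 5 libraries that stood apart (0.83, adjusted p = 0.0365). Smoke raised 4 of 8 in PBS.DEX parenchyma (9.32%), Cxcl1 by 2.11, Cxcl2 by 2.29, Cxcl3 by 2.34 and Cxcl5 by 3.04. In HDM mice with DEX, smoke moved 0 of 8 genes in airway (4.96% of all genes passed; 1 at an unadjusted p under 0.05 in limma-voom, 0 in edgeR and DESeq2) and raised 4 of 8 in parenchyma (9.69%), Cxcl1 by 0.98, Cxcl2 by 0.92, Cxcr2 by 0.69 and Csf3 by 2.201. HDM in smoke with DEX raised Cxcr2, Csf3 and Csf3r in airway (1.18, 1.47 and 1.42; 33.6% of all genes passed) and in parenchyma (0.77, 1.84 and 0.93; 22% of all genes). The parenchyma call of Csf3 was lost in edgeR (1.41, adjusted p = 0.069), in DESeq2 (1.44, adjusted p = 0.0753) and among libraries with Arntl above Dbp (2.06, adjusted p = 0.0526).

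Interaction terms with DEX passed for at most 3 of the 8 genes in any 1 test in limma-voom as reported. For HDM by DEX in parenchyma edgeR and DESeq2 each called 4, with Cxcl2 passing in both (-1.40, adjusted p = 0.0242, and -1.38, adjusted p = 0.0165). For HDM by DEX none of 8 passed in airway (4.62% of all genes; 3 at an unadjusted p under 0.05 in limma-voom, 0 in edgeR and DESeq2) and 3 of 8 were negative in parenchyma (12.4%), Cxcl1 at -1.88 (SE 0.50), Cxcr2 at -1.08 (SE 0.32) and Cxcl15 at -0.85 (SE 0.29). For smoke by DEX only Cxcl15 passed in airway, at -1.23 (SE 0.29, adjusted p = 0.0392; 0.0822% of all genes), and in parenchyma Cxcl1 at -1.97 (SE 0.49) and Cxcl15 at -1.29 (SE 0.30) passed (3.22%). The airway call of Cxcl15 was lost without the 5 libraries that stood apart (-1.21, adjusted p = 0.0688) and in edgeR and DESeq2. The HDM by DEX call of Cxcl15 in parenchyma was lost without those 5 libraries (-0.84, adjusted p = 0.0574) and in 1 fit over both weeks (-0.82, adjusted p = 0.0573). It was also lost with Arntl and Dbp as covariates (-0.50, adjusted p = 0.197) and with Arntl above Dbp only (-0.76, adjusted p = 0.0599).

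In limma-voom, every member that passed between the tissues was higher in parenchyma, in 8 of 10 comparisons. Csf3 went the other way in alternatives. In PBS mice of 3 weeks its log2FC was 1.00 (adjusted p = 0.143) in limma-voom, and Csf3 passed as higher in airway in edgeR (1.503, adjusted p = 0.0396), in DESeq2 (1.67, adjusted p = 0.0253) and without a filter (1.07, adjusted p = 0.0445). With neighbouring codes as a block it passed as higher in airway in HDM.CS (1.30, adjusted p = 0.00994) and HDM.AIR.DEX (1.76, adjusted p = 0.0152). Summed counts of Csf3 were 3.265 times as frequent in airway as in parenchyma in PBS of 3 weeks (exact 95% Poisson interval 1.468 to 8.221, for counting error only), 2.41 times in HDM.CS (1.71 to 3.435) and 4.105 times in HDM.AIR.DEX (2.23 to 8.16). In PBS mice of 3 weeks Cxcl15 and Csf3r were lower in airway, 2 of 8 members (31.7% of all genes were lower), with log2FC of -0.66 (SE 0.20) and -0.53 (SE 0.20). With HDM 6 of 8 were lower in airway (16.7%), Cxcl3 by the most, at -1.37 (SE 0.28), and all but Cxcl5 and Csf3 passed. Without the 5 libraries that stood apart Cxcl15 did not (-0.35, adjusted p = 0.127). In PBS.AIR (30.1% of all genes) and in PBS.AIR.DEX (24.8%), Cxcl15, Cxcr2 and Csf3r were the 3 lower in airway. In PBS.CS 6 of 8 were lower (23.8%), with Cxcl2 at -1.34 and Cxcl1 at -1.13, among them Cxcr2, which was lost without those 5 libraries (-0.50, adjusted p = 0.0663), and in PBS.CS.DEX 7 of 8 (22.5%). None passed in HDM.AIR (3.48%) or HDM.AIR.DEX (1.23%), while Cxcl1 alone was lower in HDM.CS (-0.96; 7.85%), and Cxcl1 and Cxcl2 in HDM.CS.DEX (-1.23 and -1.11; 7.74%). At an unadjusted p under 0.05, limma-voom gave 2 genes in HDM.AIR and 1 in HDM.AIR.DEX, and edgeR and DESeq2 called 0. With the block, Cxcl3 passed in HDM.AIR (-0.60, adjusted p = 0.0337), 3 members passed in HDM.CS and 6 in HDM.CS.DEX.

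The effects of HDM and of smoke themselves did not pass a test of their difference between tissues for any member in limma-voom. This held for HDM at 3 weeks (17.3% of all genes passed), HDM at 11 weeks (27.6%) and smoke (3.73%), with 3, 1 and 1 genes at an unadjusted p under 0.05 in limma-voom. The nearest was Cxcl1 with HDM at 3 weeks, -0.75 (95% interval -1.30 to -0.21; adjusted p = 0.0544), which passed without the 5 libraries that stood apart (-0.81, adjusted p = 0.0454). edgeR called 3 of these differences in all and DESeq2 called 5. With neighbouring codes as a block 3 passed, Cxcl1 with HDM at 3 weeks (-0.76, adjusted p = 0.0317), Csf3r with HDM at 11 weeks (0.71, adjusted p = 0.0224) and Cxcl1 with smoke (-1.34, adjusted p = 0.028).

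Within several HDM and smoke groups of 11 weeks, Cxcl5 was higher in libraries in which Arntl exceeded Dbp, and in others the 2 sets overlapped. The split was chosen after the values were seen, as Arntl above or below Dbp in CPM, and the labels used here give no time of collection. In HDM.AIR airways Cxcl5 was 85.4 to 216 CPM in the 7 libraries with Arntl above Dbp and 27.3 to 44.8 CPM in the other 3. In HDM.AIR parenchyma it was 92.7 to 260 CPM in 7 and 18.1 to 36.1 CPM in 3 libraries. The sets were also apart in PBS.CS parenchyma (140 to 329 CPM in 7 and 51.98 to 69.4 in 3) and in PBS.CS.DEX parenchyma (116.3 to 277 CPM in 7 and 13.8 to 28.3 in 3), in PBS.CS.DEX airways (33.7 to 89.7 CPM in 7 and 7.88 to 23.8 in 3) and in HDM.CS airways (88.99 to 276 CPM in 8 and 36.04 to 51.1 in 2). In PBS.CS airways the sets overlapped, at 69.3 to 152.9 CPM in 6 and 32.5 to 119.1 CPM in 4 libraries. They also overlapped in HDM.CS parenchyma (97.8 to 230 CPM in 8 and 54.8 to 98.6 in 2), in HDM.CS.DEX airways (53.3 to 128.06 CPM in 6 and 35.1 to 58.5 in 4) and in HDM.CS.DEX parenchyma (72.03 to 224 CPM in 6 and 79.9 to 105.01 in 4). In HDM.AIR.DEX the few libraries below lay within the range of the others. Other ligands also showed the split. Cxcl1 did in parenchyma of PBS.CS (73.3 to 102.5 CPM against 45.5 to 51.1 CPM) and PBS.CS.DEX. It also did in HDM.AIR airways (17.2 to 45.6 against 9.77 to 14.5 CPM) and parenchyma (22.8 to 51.2 against 15.0 to 19.6 CPM). Its sets overlapped in PBS.CS and HDM.CS airways. Cxcl2 and Cxcl3 were apart in PBS.CS parenchyma, whereas their ranges and those of Csf3r overlapped in HDM.AIR in both tissues. Cxcl15 was apart in HDM.AIR in both tissues and in PBS.AIR parenchyma, and overlapped in PBS.CS. In PBS.AIR airways Cxcl5 overlapped, with medians of 12.8 CPM above and 3.30 CPM below. Among libraries with Arntl above Dbp alone, HDM.AIR still raised all 8 genes in both tissues. There 5 rather than 3 members passed with DEX in HDM.AIR parenchyma, since Cxcl5 (-0.96, adjusted p = 0.00472 in limma-voom) and Cxcl2 (-0.81) then fell too. This split left out the 3 HDM.AIR parenchyma libraries with the least Cxcl5 and 1 of HDM.AIR.DEX. The added fall of Cxcl5 therefore cannot be told apart from the choice of libraries.

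**Figure D5:**
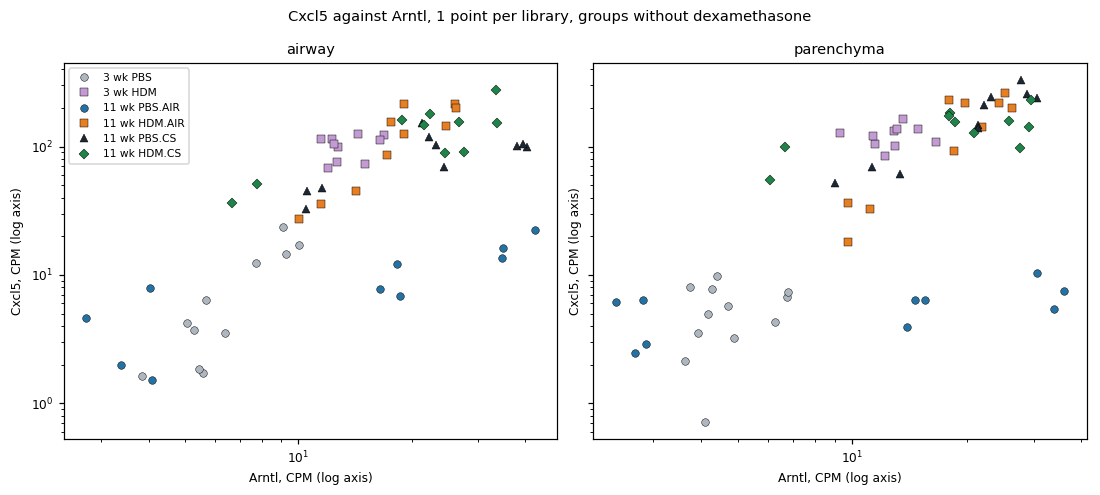
Cxcl5 against Arntl in CPM on log axes, 1 point per library of the 6 groups without DEX in each tissue. In HDM.AIR the 3 libraries with the least Cxcl5 in each tissue are those with the least Arntl, and PBS and PBS.AIR libraries stay at or below 23.7 CPM.

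Across the 20 group means of log2 CPM the members followed each other to different degrees. As a description over n = 20 groups, which share tissues and exposures, Cxcr2 and Csf3r had a Pearson r of 0.98, Cxcl1 and Cxcl2 0.94, Cxcl3 and Csf3r 0.93, Cxcl3 and Csf3 0.83, and Cxcl15 and Csf3 -0.14. Among 15841 protein-coding genes, those most like Cxcl1 were Vnn1, Itih1 and Raet1d (r from 0.95 to 0.95), and those most like Cxcl2 were Slc13a3, Hsd11b2 and Rgs16 (0.95 to 0.97). Cxcl3 was most like Ccl9 (0.99), Il1rn and Ceacam19 (both 0.98), and Cxcl5 most like Mab21l3 (0.99), Rph3a and Noxo1 (both 0.98). Cxcl15 was most like Abca3 (0.94), a lipid transporter of alveolar type II cells, with Plin3 and Slc26a9 (both 0.93). Csf3 was most like Nans (0.95), Rmi2 (0.94) and Pkp3 (0.93). Cxcr2 was most like Csf3r itself, Asprv1 and Ccr1 (0.97 for the latter 2), and Csf3r most like Lilra6, Ccr1 and Cd101 (0.98 for each). With Spearman's rho 5 of these 24 genes were again among the closest 3.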

How the data were processed

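Bulk RNA-Seq libraries of dissected mouse airway and parenchyma were grouped by week, tissue and exposure from their labels (20 groups). The authors deposited 1 table of expected counts per gene, that is, estimated counts which need not be whole and are not normalized. The submitters' processing notes name bcl2fastq 2.20.0.422, STAR 2.5.1b, RSEM 1.2.31, kallisto 0.44.0 and the build mm10, while which quantifier made the table is not given in the sources used here. Values were rounded to whole numbers, since 20.3% of those above 0 were fractional. Symbols, lengths and coordinates came from GENCODE M21, to which 98.0% of identifiers matched without version and 53.3% with version. Il36a and Il36g were matched through their older symbols. Promoters came from RefSeq on GRCm38.p6.

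A gene was kept when 9 or more libraries reached the CPM that 10 counts give at median depth, leaving 17377 genes at 3 weeks (43 libraries), 18250 at 11 weeks (160 libraries) and 18528 over both. Counts were scaled by TMM and fitted with 1 mean per group in limma-voom (R 4.3.3, edgeR 4.0.16, limma 3.58.1), with Benjamini-Hochberg adjustment over all genes. An adjusted p under 0.05 counted as passed, in a two-sided test. The script was tested on simulated data. As alternatives, DESeq2 1.42.0, the quasi-likelihood test of edgeR, DESeq2 size factors, no filter, a filter at a CPM of 10, and 1 fit over all libraries were run. After the data were seen, fits without the 5 libraries that stood apart, with Arntl and Dbp as covariates, with libraries of Arntl above Dbp only, or with neighbouring codes as a block (duplicateCorrelation on every 10th gene), and the comparison of HDM.AIR with PBS.CS, were added. Depth was 13003154 to 40240733 counts per library. Poisson intervals of Csf3 are exact and cover counting error only. Figures used matplotlib 3.10.9.

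The members and lists were chosen with earlier results of these data known. The text names all 8 members, examples with the largest changes from the lists of inducers, recruitment genes and colony-stimulating factors, checks of exposure and tissue, and the 3 genes most alike by Pearson's r over group means.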

Additional observations from a re-analysis of the deposited data

Results flagged for a closer look

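Among the sets of 1 gene in 1 group of 10 libraries, those named here held a library far from the others, and chance alone gives about 5% of sets. The PBS groups of 3 weeks hold 11 and 12 libraries and were not tested. No explanation was tested for any of these values. In HDM.AIR airways, 1 library had both the highest Cxcl1 (45.6 CPM) and the highest Cxcl15 (3425 CPM). In HDM.AIR.DEX airways, 1 library had both the highest Cxcl3 (37.5 CPM) and the highest Csf3 (0.694 CPM). In PBS.AIR parenchyma, 1 library had both the highest Cxcr2 (48.2 CPM) and the highest Csf3r (92.8 CPM), and in PBS.AIR airways 1 library had the highest Cxcr2 (39.3 CPM). Cxcr2 was also set apart in 1 HDM parenchyma library of 3 weeks (258 CPM) and 1 HDM.CS.DEX airway library (97.5 CPM).

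Cxcl2 stood apart in 1 PBS.CS.DEX airway library (13.7 CPM) and 1 HDM.CS.DEX parenchyma library (23.3 CPM), and Cxcl3 in 1 PBS.AIR.DEX airway library (3.43 CPM). Csf3 did so in 1 HDM airway library of 3 weeks (3.43 CPM), 1 PBS.AIR.DEX airway library (0.121 CPM), and in parenchyma in 1 library each of HDM.AIR.DEX (0.207 CPM), HDM.CS (0.565 CPM) and HDM.CS.DEX (0.584 CPM). Several of these Csf3 values rest on few counts.

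The effect of HDM differed between 11 and 3 weeks, by a test of the difference in limma-voom, for Cxcl15 in airway (1.31) and parenchyma (0.90), for Cxcr2 in parenchyma (-1.42) and for Csf3r in parenchyma (-0.91). Week, schedule and library handling cannot be told apart.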

How the results depend on the processing

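Over 392 tests of the members, the alternatives gave 3799 values, of which 3638 kept their side of the threshold (101 of these had another sign and passed in neither), 75 lost a call, 85 gained one and 1 reversed a call. That one was Cxcl2 with HDM at 3 weeks in airway, at -0.19 (adjusted p = 0.908) with Arntl and Dbp as covariates. The cause was not tested for any change below, and each number is a count of members passing, with the count as reported after "against". With Arntl and Dbp as covariates, HDM at 3 weeks gave 1 against 7 in airway and 3 against 7 in parenchyma (4 against 14), smoke by DEX 0 against 1 and 1 against 2 (1 against 3), differences between tissues 2 against 0, all in HDM at 3 weeks, HDM under CS.DEX in airway 5 against 3, airway less parenchyma in HDM.CS.DEX 4 against 2, DEX in HDM.CS airways 1 against 0, DEX in PBS.CS 1 against 0 in each tissue, and smoke in HDM parenchyma 2 against 1. With Arntl above Dbp only, smoke by DEX gave 0 in each tissue, HDM by smoke in airway 3 against 6, HDM.AIR less PBS.CS in parenchyma 4 against 7, DEX in HDM.AIR parenchyma 5 against 3, and smoke in HDM parenchyma 2 against 1. Differences between tissues gave 5 in DESeq2 (3 for HDM at 3 weeks, 2 for smoke), 3 in edgeR (2 and 1), and 1 with DESeq2 size factors or without the libraries that stood apart, against 0. In both edgeR and DESeq2, HDM under CS in parenchyma gave 0 against 1, DEX in HDM.AIR airways 1 against 3, DEX in PBS.AIR airways 2 against 1, smoke by DEX in airway 0 against 1, smoke in HDM.DEX parenchyma 2 against 4 and smoke in PBS.DEX airways 5 against 3. Without a filter HDM under CS in parenchyma gave 0, DEX in HDM.AIR airways 1 and smoke by DEX in airway 0. One fit over both weeks gave HDM.AIR less PBS.CS in parenchyma 4 against 7, DEX in PBS.CS airways 1 against 0, smoke by DEX in airway 0 against 1 and smoke in HDM parenchyma 2 against 1. A filter at a CPM of 10 left out Csf3, and gave 1 for DEX in PBS.CS airways and 2 for smoke in HDM parenchyma. Without the libraries that stood apart smoke by DEX in airway gave 0. Of the 24 genes most alike, 5 were shared with Spearman's rho. Pairing was examined after the values were seen, by taking neighbouring codes as a replicate block with an estimated correlation (0.12 at 3 weeks, 0.35 at 11 weeks). All 101 such pairs hold 1 airway and 1 parenchyma library of 1 exposure, and their deviations from the group means correlated with a median r of 0.40 (lowest -0.27, over 0.1 in 93), against -0.05 with other libraries of the exposure. In 74 of 101 pairs the airway library was most like its own partner, a hint from the data that the labels do not state. With this block, differences between tissues gave 3 against 0 (1 each for HDM at 3 weeks, HDM at 11 weeks and smoke), airway less parenchyma in HDM.AIR 1 against 0, in HDM.AIR.DEX 1 against 0, in HDM.CS 3 against 1 and in HDM.CS.DEX 6 against 2, DEX in PBS.CS and HDM.CS airways 1 against 0, and smoke in HDM parenchyma 2 against 1. The block moved no other count by over 1.5 times and lost 1 call, Csf3 in HDM.AIR less PBS.CS of parenchyma (1.34, adjusted p = 0.0515). Depth limits Csf3, with 5 of 10 PBS.AIR parenchyma libraries at 0 counts.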

Other observations

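Cxcr1, the second receptor gene of the family, was highest in DEX-treated and smoke-exposed libraries. In parenchyma it was 1.79 to 3.95 CPM in PBS.AIR (median 2.10), 32.3 to 44.4 CPM in PBS.AIR.DEX (median 39.1) and 18.4 to 25.2 CPM in PBS.CS (median 22.1), with no overlap of either with PBS.AIR. HDM.AIR parenchyma held 0.772 to 26.1 CPM of Cxcr1 (median 2.39). DEX raised Cxcr1 by 4.23 in PBS.AIR airways and 4.12 in PBS.AIR parenchyma, where Fpr1, a receptor for formyl peptides, fell by 1.05 and 0.83 on the log2 scale.

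Il17f was higher when smoke was added to HDM, whereas Il17a did not pass. Il17f was 0.639 to 7.41 CPM in HDM.AIR airways (median 1.53) and 4.46 to 14.7 CPM in HDM.CS airways (median 7.12), and in parenchyma 0.557 to 4.596 CPM (median 2.56) against 5.46 to 15.8 CPM (median 10.2). The log2FC of Il17f was 2.17 in airway (adjusted p = 2.98e-10 in limma-voom) and 2.19 in parenchyma (adjusted p = 3.27e-12 in limma-voom), and that of Il17a was -0.09 and -0.10.

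Per 100 CPM of summed neutrophil markers, the median level of Cxcr2 was 1.63 CPM in PBS.AIR airways and 4.53 CPM in HDM.AIR airways, and 8.92 and 8.72 CPM in parenchyma. For Csf3r these values were 3.06 and 9.76 CPM in airway and 19.3 and 20.1 CPM in parenchyma. The marker sum itself had medians of 563 CPM in PBS.AIR airways and 217 CPM in PBS.AIR parenchyma, so these ratios are not levels per neutrophil.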
